A study of Mus musculus with 6 samples.

Results

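The genes described are 48 mitosis and spindle genes, taken by exact gene symbol, of which 47 were measured among the 18193 genes of the array. A gene was read at its brightest probe set (a group of short probes for one transcript) among those annotated with exactly 1 symbol, and Ccnb1, which encodes cyclin B1, had no such probe set and is not analysed here. Transcripts were profiled on Affymetrix arrays in the whole uterus of female mice at 4 weeks of age, with 3 control and 3 mutant arrays. Mutant mice were Pgr cre/+ Ctnnb1f(ex3)/+. In this cross, Cre is made from the progesterone receptor gene, so that exon 3 of Ctnnb1 is removed in cells that have expressed Pgr, and the β-catenin made there escapes its normal breakdown. Control mice are labelled wild type, while the methods give them as Pgr cre/+ and Ctnnb1 f(ex3)/+ animals, that is, mice with 1 of the pair of alleles and no recombination. The methods state that RNA from 3 mice per genotype was pooled, so it is not settled whether each array is a separate animal. The p-values therefore speak of array-to-array spread, part or all of which may be technical.

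Cells that divide make a set of transcripts late in their cycle that resting cells hardly make. Cyclins A and B with Cdk1 drive entry into mitosis, condensins and topoisomerase compact the chromosomes, kinetochores and motor proteins attach and move them on the spindle, and a checkpoint holds the separation of sister chromatids until every chromosome is attached. Many of these genes are held silent outside the cycle and activated in G2 and mitosis through the DREAM and B-Myb complexes and Foxm1. These act through a CHR element near the start of transcription, where such genes often also hold CCAAT boxes. In the uterus, the share of dividing epithelial and stromal cells changes strongly with estrogen and progesterone. In RNA of a whole organ, fewer dividing cells and less of a transcript per cell cannot be told apart.

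The arrays had nearly equal median intensities, from 7.23 to 7.42, and no array repeated another. The level of Ctnnb1 was 11.51, 11.54 and 11.53 in the controls and 11.72, 11.92 and 11.93 in the mutants (log2 intensity), a rise of 0.33 (limma adjusted p = 0.0498), and where its probes lie relative to exon 3 was not examined. Axin2, a direct target of β-catenin, was 6.26, 5.94 and 5.88 in the controls and 8.45, 8.82 and 8.65 in the mutants. The groups did not overlap, and the difference was 2.61 (SE 0.14, limma adjusted p = 0.000107). Markers of the organ were well above the dim range on all 6 arrays, with means over the lists of at least 8.09 for 10 epithelium markers, 10.25 for 10 stroma markers and 9.05 for 9 smooth muscle markers. One array stood apart for the genes described here: on control replicate 2, 105 genes were more than 1 log2 unit below each of the other 5 arrays, while on each other array this held for between 0 and 10 genes. Results that rest on this array are given with and without it.

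Control replicate 2 had low levels of mitotic transcripts. On this array 39 of the 47 members (83.0%) were more than 1 log2 unit below each of the other 5 arrays, against 0.577% of all 18193 genes. The members thus made up 37.1% of the 105 genes that were so low. No member was more than 1 unit below, or above, the others on any other array. Control replicate 2 was the lowest of the 6 arrays for 45 members, against 19.7% of all genes, the exceptions being Pttg1 and Cdc25c. The median member was 2.19 log2 units below the mean of the other 5 arrays, which is 4.58-fold, while the median over all genes was -0.01. The array was known to stand apart before these counts were made, and 1 array cannot be tested, so they are descriptions.

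**Figure D1:**
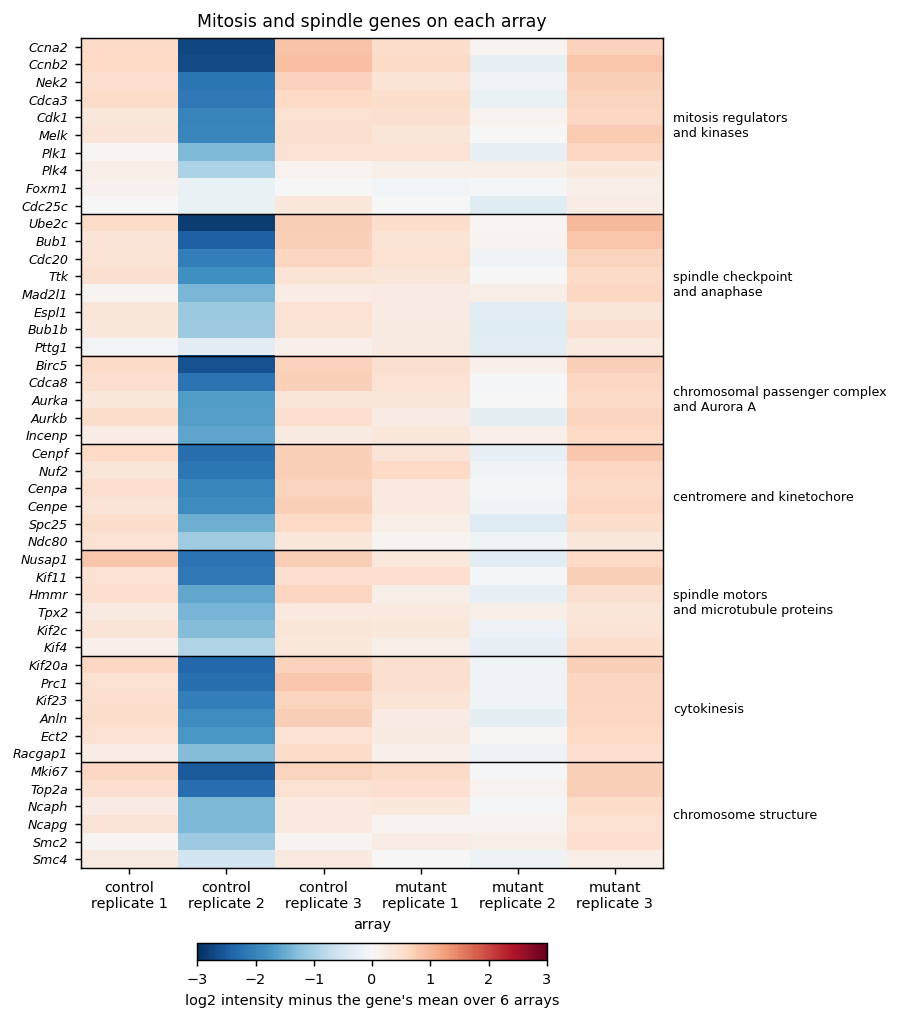
Each row is 1 of the 47 measured mitosis and spindle genes, grouped by role, and each column is 1 array; the color is log2 intensity minus the gene's mean over the 6 arrays. Control replicate 2 is blue across every role, mutant replicate 2 is pale, and Foxm1, Cdc25c and Pttg1 show the least contrast.

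Among the mitosis regulators and kinases, 8 of the 10 measured were more than 1 unit lower on control replicate 2, the others being Foxm1 and Cdc25c. Ccna2, or cyclin A2, which acts from DNA synthesis to early mitosis, read 7.56, 4.24 and 7.84 in control replicates 1 to 3 and 7.51, 7.05 and 7.67 in mutant replicates 1 to 3. Ccnb2, or cyclin B2, a partner of Cdk1, read 7.02, 3.73 and 7.32 in the controls and 7.0, 6.16 and 7.25 in the mutants. For both cyclins the low value was control replicate 2, the next was mutant replicate 2, and the other 4 arrays lay close together. Cdk1, the kinase that starts mitosis, was 4.65 on control replicate 2 and 6.77 to 7.29 elsewhere. The centrosome kinase Nek2 read 2.06 on control replicate 2 against 4.17 to 4.97, and Plk1, which acts at centrosomes, kinetochores and the midbody, read 3.82 against 4.90 to 5.77. All 3 kinases thus kept a gap between control replicate 2 and the rest. Cdca3, which promotes mitotic entry, was 4.21 against 6.16 to 7.03, and the kinase Melk was 3.17 against 5.11 to 5.88.

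Plk4, the kinase that sets centriole number, differed less. It read 6.60, 5.49 and 6.54 in the controls and 6.61, 6.61 and 6.75 in the mutants, so that the 5 arrays other than control replicate 2 were within 0.21 of each other. Foxm1, a transcription factor that activates many of the other members, read 4.17, 3.83 and 4.02 in the controls and 3.96, 3.98 and 4.22 in the mutants. Its control replicate 2 was lowest, by 0.24 below the mean of the others, at an intensity near the dim range (under 16, or 4 on the log2 scale), where a probe set responds little. Cdc25c, the phosphatase that activates Cdk1, read 2.95, 2.76 and 3.25 in the controls and 2.95, 2.59 and 3.17 in the mutants, and was dim on every array.

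The transcripts that act at the checkpoint and at anaphase included the member that differed most. Ube2c, the ubiquitin-conjugating enzyme of the anaphase-promoting complex, read 7.86, 4.45 and 8.06 in the controls and 7.85, 7.36 and 8.29 in the mutants. Control replicate 2 was 10.8-fold below the mean of the other 5 arrays, and controls 1 and 3 lay within the span of the mutants. Cdc20, which activates the same complex, was 5.56 against 7.51 to 8.28. Bub1, a checkpoint kinase at the kinetochore, read 5.39, 2.56 and 5.73 in the controls and 5.41, 5.11 and 5.83 in the mutants, so again a single control was far below all others. Ttk, the kinase that starts checkpoint signaling, was 1.96 against 3.77 to 4.36, and Mad2l1, the inhibitor of Cdc20 in the checkpoint, read 6.99, 5.54 and 7.14 in the controls and 7.15, 7.10 and 7.54 in the mutants. Bub1b, or BubR1, was 4.63 against 5.35 to 6.20, and Espl1, or separase, which cuts cohesin, was 3.64 against 4.44 to 5.18, both gaps under 1. Pttg1, or securin, the inhibitor of separase, was the exception of this group. It read 9.28, 9.05 and 9.51 in the controls and 9.62, 9.02 and 9.64 in the mutants, the lowest value being mutant replicate 2. Its other 2 probe sets also did not have control replicate 2 lowest.

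All 5 members of the chromosomal passenger complex and Aurora A were more than 1 unit lower on control replicate 2. Birc5, or survivin, read 6.49, 3.32 and 6.62 in the controls and 6.4, 6.08 and 6.64 in the mutants. Incenp, the scaffold of the complex, read 6.93, 5.13 and 6.97 in the controls and 7.05, 6.85 and 7.29 in the mutants. Both had 5 arrays in a narrow band and 1 control far below it. The borealin gene Cdca8 was 3.95 against 6.10 to 6.86, the kinase Aurkb 2.78 against 4.17 to 5.10, and Aurka, the kinase of the spindle poles, 3.28 against 4.98 to 5.54.

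At the centromere and kinetochore, 5 of 6 members were lower by more than 1 unit. Cenpa, the histone H3 variant that marks the centromere, was 4.26 on control replicate 2 against 6.14 to 6.87 elsewhere, Cenpf was 2.71 against 4.73 to 5.77, and the kinetochore motor Cenpe was 2.50 against 4.28 to 5.11. Spc25, Nuf2 and Ndc80 belong to 1 complex, which binds the ends of microtubules. Spc25 read 7.08, 5.08 and 7.13 in the controls and 6.73, 6.15 and 7.07 in the mutants, Nuf2 was 2.36 against 4.44 to 5.25, and Ndc80, dim on all 6 arrays, was 2.42 against 3.36 to 3.92.

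Among the spindle motors and microtubule proteins, control replicate 2 was lowest and mutant replicate 2 next lowest for all 6 members. Nusap1, which bundles microtubules around chromosomes, read 6.97, 3.94 and 6.88 in the controls and 6.48, 5.83 and 6.75 in the mutants. Hmmr, which helps to assemble spindle poles, read 6.17, 4.10 and 6.31 in the controls and 5.85, 5.43 and 6.14 in the mutants. For these genes controls 1 and 3 were above all mutants, and control replicate 2 was below them all. Kif11, the motor that pushes spindle poles apart, was 2.66 against 4.77 to 5.52, Kif2c, which shortens microtubules, 3.92 against 5.04 to 5.64, and Tpx2, the activator of Aurora A, 3.30 against 4.86 to 5.06. The chromosome-bound motor Kif4 read 4.52, 3.47 and 4.67 in the controls and 4.54, 4.11 and 4.89 in the mutants, with a gap of under 1.

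All 6 cytokinesis genes were more than 1 unit lower on control replicate 2. Anln, or anillin, a scaffold of the contractile ring, read 6.96, 4.58 and 7.18 in the controls and 6.69, 6.17 and 7.07 in the mutants. Prc1, which crosslinks the midzone, was 4.14 against 6.30 to 7.21, and the motor Kif20a was 2.77 against 5.0 to 5.84. Kif23 and Racgap1, partners in the centralspindlin complex, were 3.38 against 5.32 to 6.12 and 3.31 against 4.44 to 5.16. Ect2, which activates RhoA at the division site, was 3.71 against 5.48 to 6.05.

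Of the genes for chromosome structure, 5 of 6 were more than 1 unit lower on control replicate 2. Mki67, whose product Ki-67 coats mitotic chromosomes and is used as a marker of dividing cells, read 7.91, 4.78 and 7.97 in the controls and 7.86, 7.25 and 8.01 in the mutants. Its value on control replicate 2 stood 2.47 below the next lowest array, mutant replicate 2. Top2a, the topoisomerase that untangles DNA, was 5.04 against 7.42 to 8.04. The condensin subunits were lower by smaller amounts. Smc2 read 6.77, 5.58 and 6.77 in the controls and 6.91, 6.87 and 7.20 in the mutants, and Smc4 read 7.76, 6.90 and 7.76 in the controls and 7.46, 7.32 and 7.68 in the mutants. Ncaph was 4.64 against 5.94 to 6.54 and Ncapg 1.81 against 3.26 to 3.63.

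**Figure D2:**
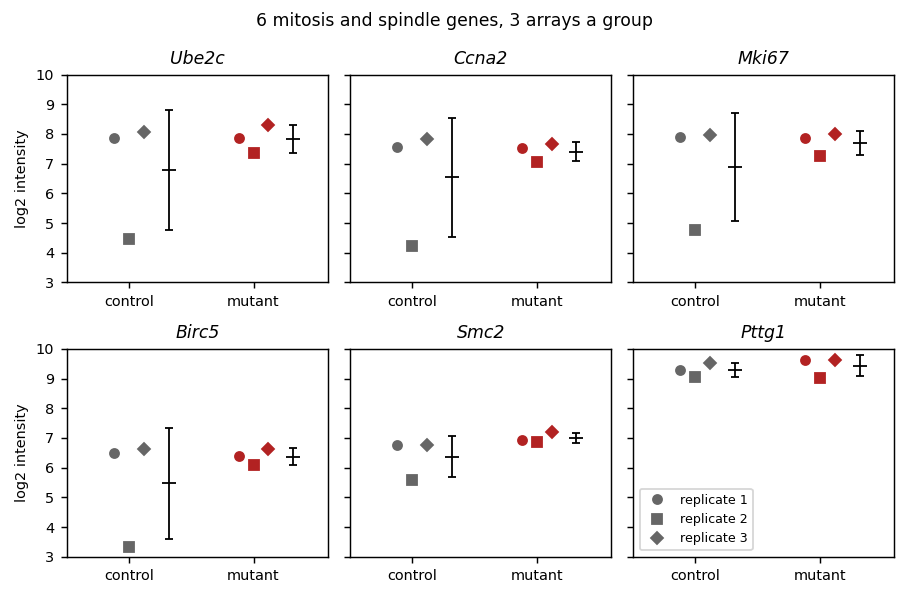
Log2 intensity of 6 members in 3 control (gray) and 3 mutant (red) arrays; marker shape gives the replicate number and the bar beside each group is the mean ± SD (n = 3). For Ube2c, Ccna2, Mki67 and Birc5 a single control, replicate 2, lies far below the other 5 arrays, while Smc2 shows a smaller gap and Pttg1 none.

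The other 2 control arrays were alike. Controls 1 and 3 differed by a median of 0.11 over the members and by at most 0.37, for Plk1, and 33 of 47 members differed by under 0.2. With control replicate 2 included, the SD of the controls had a median of 1.32, against 0.36 for the mutants, where all genes had 0.11 and 0.12. On control replicate 2, 27 members were under an intensity of 16, so their differences there may be compressed, while 5 members had a value under 16 on any other array. Ncapg, Ndc80 and Cdc25c were under 16 on all 6 arrays.

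Most of the other bright probe sets of these genes gave low values on the same array. The 47 members had 110 probe sets, and control replicate 2 was lowest on 89 of them and more than 1 unit below the others on 52. Of the 63 probe sets not used, 49 were dim, with a mean under 16. Among the other 14, control replicate 2 was lowest on 13 and more than 1 unit below on 9. With the mean of all probe sets of a gene in place of the brightest, 24 members were more than 1 unit lower. Incenp, for example, gave 5.17, 3.71 and 5.06 in the controls and 5.23, 4.78 and 5.35 in the mutants with a second probe set. For 11 members the probe set used is of a kind that may also bind related transcripts, and their values are less certain for that.

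The sequences near the start of these genes are shown for Ube2c, Ccnb2, Mki67 and Bub1, the members with the largest differences on control replicate 2 whose window holds a CHR. Each runs from 250 bases before to 50 after the start of transcription (RefSeq, GRCm38.p6), at chr2:164769679-164769978 on the plus strand for Ube2c, and on the minus strand at chr9:70421505-70421804 for Ccnb2, chr7:135716330-135716629 for Mki67 and chr2:127831810-127832109 for Bub1. Capitals mark the CHR and the CCAAT box on either strand. The CHR was searched for as TTTGAA and, in a common variant of the element, as TTCGAA. On the opposite strand it reads TTCAAA, and the CCAAT box there reads ATTGG.
Ube2c: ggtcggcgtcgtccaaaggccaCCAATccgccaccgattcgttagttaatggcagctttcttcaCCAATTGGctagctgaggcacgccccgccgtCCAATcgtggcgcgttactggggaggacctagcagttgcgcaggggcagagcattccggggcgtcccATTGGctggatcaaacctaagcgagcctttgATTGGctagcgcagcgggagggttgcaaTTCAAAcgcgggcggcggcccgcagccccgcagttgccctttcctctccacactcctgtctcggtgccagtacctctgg
Ccnb2: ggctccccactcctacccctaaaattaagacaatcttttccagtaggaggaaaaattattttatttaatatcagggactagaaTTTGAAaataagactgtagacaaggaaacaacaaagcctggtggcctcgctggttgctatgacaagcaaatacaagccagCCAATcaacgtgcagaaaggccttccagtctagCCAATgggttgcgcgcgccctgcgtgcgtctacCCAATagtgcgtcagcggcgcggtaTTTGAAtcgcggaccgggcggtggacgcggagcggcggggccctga
Mki67: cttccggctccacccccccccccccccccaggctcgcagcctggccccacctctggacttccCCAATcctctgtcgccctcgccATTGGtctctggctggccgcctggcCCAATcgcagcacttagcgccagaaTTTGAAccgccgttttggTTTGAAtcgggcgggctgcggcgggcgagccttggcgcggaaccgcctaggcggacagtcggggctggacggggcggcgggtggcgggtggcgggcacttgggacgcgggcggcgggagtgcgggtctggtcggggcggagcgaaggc
Bub1: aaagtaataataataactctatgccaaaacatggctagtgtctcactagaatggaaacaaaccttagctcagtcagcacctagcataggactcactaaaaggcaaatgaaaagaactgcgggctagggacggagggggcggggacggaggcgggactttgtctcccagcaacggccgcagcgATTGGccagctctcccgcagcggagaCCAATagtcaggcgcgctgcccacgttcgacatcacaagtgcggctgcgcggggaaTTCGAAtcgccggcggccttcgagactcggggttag
In Ube2c the CHR begins at -29 from the start, and 6 CCAAT boxes begin between -228 and -57. A pair of these, on opposite strands, share letters, while no CHR overlaps a CCAAT box. Ccnb2 holds 2 CHR matches, beginning at -167 and at +5, and 3 CCAAT boxes from -87 to -21. In Mki67 the 2 CHR matches begin at -116 and -98, and in Bub1 the single one begins at +15.

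Entries were found for 40 of the 48 listed genes. Their windows held a CHR for 29 genes (72.5%), against 21.7% of the 27025 genes with a window, and a CCAAT box for 29 genes (72.5%), against 41.1%. Both motifs occurred together for 26 members (65.0%), against 8.61% of all genes. An E2F motif, searched for on both strands as TTTGGCGC and, for the other common form, as TTTCCCGC, occurred for 1 member (2.5%), against 1.8%. Birc5, which was 3.13 units lower on control replicate 2, holds neither the CHR letters nor CCAAT in its window. In 68 other mitosis genes with a window, the CHR was present in 63.2%, the CCAAT box in 66.2%, both in 42.6% and the E2F motif in 11.8%. In 39 DNA replication genes, the CHR was present in 23.1% and the E2F motif in 28.2%, which is the reverse of the order in the members. A match is a stretch of letters and not a shown binding site, and genes with related starts are not independent of each other.

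The mutant arrays were compared with the controls to ask whether stabilized β-catenin changed mitotic transcripts in the uterus. No member passed the test at its brightest probe set. On 6 arrays, 0 of 47 members were higher in the mutant and 0 were lower (limma, adjusted p under 0.05 over all genes), while 5.61% of all 18193 genes were called higher and 6.36% lower. Without control replicate 2 the counts were again 0 and 0, against 3.97% and 3.75%. At an unadjusted limma p under 0.05 there were 0 members as well, against 26.5% of all genes on 6 arrays and 22.8% without control replicate 2. The equal-variance test that the methods give for data with 2 groups also gave 0 members at that level, against 22.8% of all genes. The methods do not name this test for the arrays in particular.

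The direction of the members depended on control replicate 2. On 6 arrays the mutant mean was above the control mean for 46 of 47 members, against 47.2% of all genes, and the median difference was 0.61 (quartiles 0.38 and 0.71), against -0.01 over all genes. Without this array the median was -0.20 (quartiles -0.29 and -0.05), against -0.02 over all genes. The mean of controls 1 and 3 was then above the mutant mean for 39 members (83.0%), against 54.9% of all genes. The median SE of a member was 0.57 with the array and 0.20 without it. On 6 arrays the 95% interval of 43 members reached past 1 log2 unit, so that a change of 2-fold could not be seen or set aside for them. Without control replicate 2 this held for 4 members.

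Ube2c had a difference of 1.04 (SE 0.87, 95% interval -0.99 to 3.08, limma adjusted p = 0.519) on 6 arrays and of -0.13 (interval -0.72 to 0.47, adjusted p = 0.824) without control replicate 2. For Mki67 the difference was 0.82 (SE 0.79, interval -1.01 to 2.65, limma adjusted p = 0.58) with the array and -0.23 (interval -0.75 to 0.29) without it. Both turned from above 0 to below 0, and neither was past the threshold in either case. Ccna2 went from 0.86 (interval -1.12 to 2.85) to -0.29 (interval -0.75 to 0.17), Ccnb2 from 0.78 to -0.36, Birc5 from 0.90 to -0.18, Bub1 from 0.89 to -0.11 and Anln from 0.41 to -0.43. The members nearest to 0 on 6 arrays were those with little difference on control replicate 2. These were Smc4 at 0.01, Foxm1 at 0.04, Cdc25c at -0.08 and Pttg1 at 0.15, the last being 0.04 without control replicate 2. Kif4 differed by 0.29 on 6 arrays and -0.09 without the array.

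**Figure D3:**
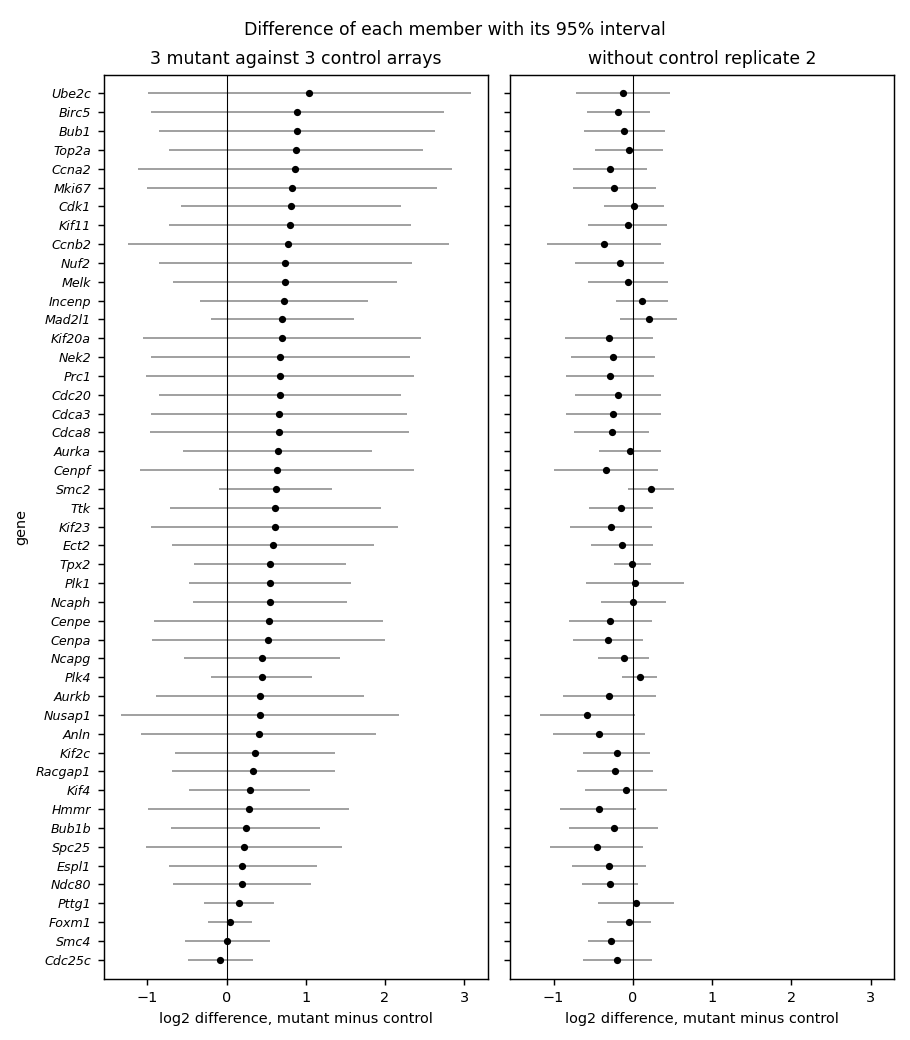
Log2 difference, mutant minus control, of each of the 47 members with its 95% interval from limma, on 6 arrays (left) and without control replicate 2 (right). The intervals are wide and centered above 0 on the left and narrower and mostly centered below 0 on the right, where the median is -0.20.

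Few members had groups that did not overlap. Every mutant array was above every control array for 2 members, Smc2 and Plk4, against 14.9% of all genes, and below every control for 0 members, against 17.4%. Smc2 had the lowest p of a member on 6 arrays, with a difference of 0.62 (SE 0.30, limma adjusted p = 0.249), and 0.23 (interval -0.07 to 0.52, adjusted p = 0.339) without control replicate 2. A dim probe set of Smc2 split the groups more widely. It read 3.56, 2.97 and 3.75 in the controls and 4.14, 4.35 and 4.49 in the mutants. Another dim one split them most widely, at 3.316, 2.729 and 3.205 in the controls and 4.107, 4.248 and 4.395 in the mutants. The remaining ones of Smc2, dim as well, overlapped. Only the brightest probe set was read in the test, so these splits have no p-value here. Plk4 differed by 0.45 on 6 arrays and 0.09 without the array. Its highest control read 6.60 and its lowest mutant 6.61, and its other probe sets overlapped between the groups. Without control replicate 2 every mutant was above both controls for the same 2 members, against 18.7% of all genes. All mutants were below both remaining controls for 5 members, namely Nusap1, Hmmr, Spc25, Smc4 and Espl1, against 23.1% of all genes. The difference of Nusap1 was -0.57 (SE 0.25, interval -1.17 to 0.02, limma adjusted p = 0.234), that of Spc25 -0.45 (adjusted p = 0.338) and that of Hmmr -0.43 (adjusted p = 0.261). Smc4 differed by -0.27 (limma adjusted p = 0.244), but its place in this group rests on 1 probe set. A second one read 7.16 and 7.18 on controls 1 and 3 and 7.21, 7.23 and 7.40 in the mutants, the other way round, and the remaining one read 5.94 and 6.20 against 6.22, 6.12 and 6.32, which overlap. Incenp and Mad2l1 stayed above 0 without the array, at 0.11 and 0.20.

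A smaller difference in the members ran through the mutant arrays. Mutant replicate 2 was the lowest of the 3 mutants for 45 of 47 members, against 36.1% of all genes. The order of replicate 3, 1 and 2 from high to low held for 45 members, where 17.5% of all genes had replicate 3 highest and replicate 2 lowest. Mutant replicate 2 was below the mean of the other 2 mutants by a median of 0.57, and the median over all genes was -0.01. By this measure 29 members were more than 0.5 lower, and 402 genes in all. Ccnb2 had the largest such difference, at -0.96, and Plk4 the smallest, at -0.07. Averaged over the 47 members, the arrays read 6.04, 3.94 and 6.15 in the controls and 5.98, 5.56 and 6.22 in the mutants. Control replicate 2 is therefore the extreme of a span in which mutant replicate 2 was the next lowest.

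Members that were lower on control replicate 2 also tended to be lower on mutant replicate 2. Across the 47 members the 2 differences had a Pearson r of 0.517 and a Spearman rho of 0.459, which is given as a description over genes that share the same arrays and have unequal brightness. When both arrays were left out, the median difference between mutant and control was -0.01 and lay between -0.31 and 0.29 for every member.

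**Figure D4:**
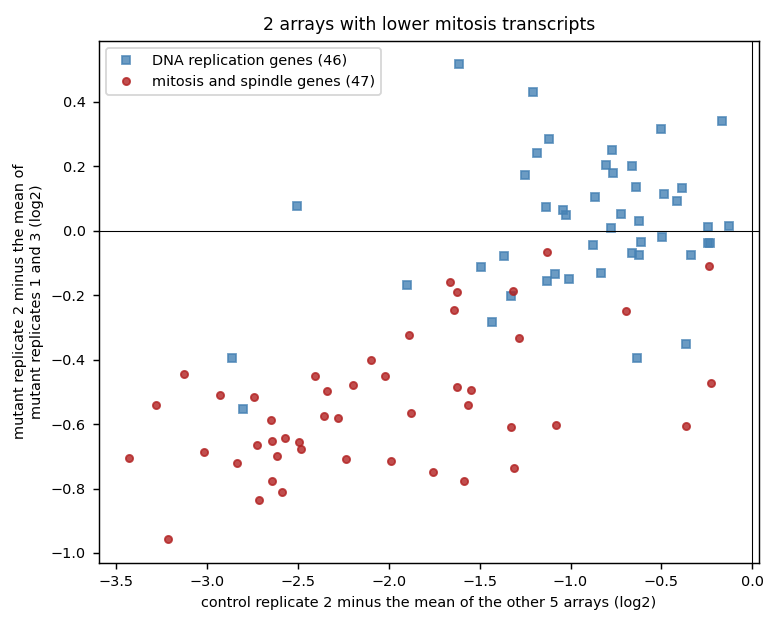
Each point is a gene, placed by its log2 difference on control replicate 2 from the mean of the other 5 arrays (horizontal) and on mutant replicate 2 from the mean of mutants 1 and 3 (vertical); 47 members are red circles and 46 DNA replication genes are blue squares. All members lie below 0 on both axes, while the replication genes lie left of 0 and on both sides of 0 vertically, with a median of 0.015.

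Other genes of the cell cycle were read from lists of the same kind. Of 83 further mitosis genes measured, 32 were more than 1 unit lower on control replicate 2 (38.6%), with a median of -0.87. The largest were Cep55, which acts in the final cut between daughter cells, at -3.25, the kinase Pbk at -3.14, Cdca5, or sororin, which holds sister chromatids together, at -3.14, and the spindle pole gene Aspm at -2.98. These lay within the range of the members, where Ube2c and Ccna2 had larger differences. On the mutant side, 69 of the 83 had mutant replicate 2 lowest. In the comparison of mutant with control, 0 of the 83 were higher and 1 was lower, against 5.61% and 6.36% of all genes. That gene was Cdc25b, a phosphatase that activates Cdk1, at 5.86, 5.54 and 5.91 in the controls and 5.23, 4.96 and 5.39 in the mutants, a fall of 0.58 (SE 0.14, limma adjusted p = 0.0389) that also passed without control replicate 2 (adjusted p = 0.0325).

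DNA replication genes differed on the same array, but most by less. Control replicate 2 was lowest for 43 of 46, and 9 were more than 1 unit lower, with a median of -0.79. Rrm2, a subunit of the enzyme that makes deoxynucleotides, was at -2.86, the thymidine kinase Tk1 at -2.80 and Uhrf1, which carries DNA methylation through replication, at -2.50. Mutant replicate 2 did not have this low level. It was the lowest mutant for 16 of the 46 genes and the highest for 19, with a median of 0.015 against mutants 1 and 3. Unlike any member, 8 of the 46 were called higher in the mutant and 0 lower, against 5.61% and 6.36% of all genes. Without control replicate 2, 7 were higher, against 3.97% of all genes. Cdc6, which loads the replicative helicase, read 2.96, 2.38 and 3.00 in the controls and 3.72, 4.28 and 3.98 in the mutants, a rise of 1.21 (limma adjusted p = 0.00971). Mcm3, a subunit of that helicase, rose by 0.94 (adjusted p = 0.0289), and Rpa1, which binds single strands, by 0.71 (adjusted p = 0.00572). The median over the replication list was 0.52 on 6 arrays and 0.22 without control replicate 2, where the median of the members was below 0. The difference between the lists was not tested.

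Of 24 G1 cyclins, kinases and Cdk inhibitors, 2 were called higher and 1 lower, against 5.61% and 6.36% of all genes. Cdkn1a, or p21, which inhibits Cdks and feeds the DREAM complex, read 4.44, 4.25 and 4.73 in the controls and 7.20, 7.44 and 7.59 in the mutants, a rise of 2.94 (SE 0.15, limma adjusted p = 1e-04). Ccnd1, or cyclin D1, rose by 0.78 (adjusted p = 0.00142), and Cdkn1b, or p27, fell by 0.70 (adjusted p = 0.0384). Without control replicate 2, p21 and cyclin D1 were again called higher (adjusted p = 0.000562 and 0.0063), but the difference of p27 was -0.58 and did not pass (limma adjusted p = 0.103). The list then had 4 genes higher and 0 lower, against 3.97% and 3.75% of all genes. On control replicate 2, 3 of the 24 were more than 1 unit lower, and p21 was not among them. None of 15 DREAM and B-Myb complex genes was called, against 5.61% of all genes higher and 6.36% lower on 6 arrays. None was more than 1 unit lower on control replicate 2, against 0.577% of all genes, and their median there was -0.09. Among them Mybl2, the B-Myb gene, Lin9, Lin52 and E2f4 were under 16 on all 6 arrays, where a probe set responds little.

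Cell type markers other than those of adipocytes were centered near 0 on control replicate 2. Against the other 5 arrays its median difference was 0.03 for 10 epithelium markers, 0.05 for 10 stroma markers, -0.05 for 9 smooth muscle markers, 0.16 for 9 endothelium markers and 0.10 for 12 leukocyte markers, and 0 of these genes were more than 1 unit lower. The single markers lay between -0.50, for a leukocyte gene, and 0.90, for the endothelial receptor Tek. The other 5 arrays include the 3 mutants, and Tek was itself lower in the mutant, by 0.85 (limma adjusted p = 0.0282). Without control replicate 2 it did not pass (limma adjusted p = 0.0676). The mean over the epithelium markers was 8.50 on control replicate 2, against 8.67 and 8.80 on the other controls and 8.09 to 8.59 in the mutants. Control replicate 2 was the lowest control for 8 of these 10 genes. Mutant replicate 2 was the lowest mutant for 7 of them. For stroma markers these counts were 5 and 8 of 10, and for smooth muscle markers 5 and 0 of 9. They were 3 and 2 of 9 for endothelium and 2 and 3 of 12 for leukocyte markers. Over all 18193 genes they were 6831 and 6575. The part of these markers in the levels of the members was not tested. For 7 reference genes the median difference was 0.01. On 6 arrays 2 of the epithelium markers were called lower in the mutant, and 1 endothelium marker was called higher and 1 lower. Over all genes 5.61% were called higher and 6.36% lower. The adipocyte markers differed most between the groups, with a median of 1.31, so they were compared within each. Their mean over 8 genes was 5.14, 5.48 and 3.93 in the controls and 6.19, 6.67 and 6.03 in the mutants. Control replicate 2 was the highest control for 7 of the 8 and mutant replicate 2 the highest mutant for all 8, so these markers were highest within each group on the arrays with the lower mitotic transcripts. Adipoq, or adiponectin, read 7.92, 8.44 and 5.23 in the controls and 9.67, 10.05 and 9.32 in the mutants. Of the 8 markers, 3 were called higher in the mutant on 6 arrays, and 5 without control replicate 2, against 5.61% and 3.97% of all genes. Their part in the levels of the members was not tested. Of 13 estrogen response genes, 1 was more than 1 unit lower on the array. This was Sprr2f, a small proline-rich protein of the epithelium, at 9.13, 6.42 and 7.87 in the controls and 8.08, 8.20 and 10.14 in the mutants. Ltf, or lactoferrin, read 9.11, 7.66 and 9.40 in the controls and 7.56, 8.33 and 9.52 in the mutants, so that mutant replicate 1 was even lower than control replicate 2. Over the list, control replicate 2 was the lowest of the 3 controls for 10 of 13 genes, and the mean level was 7.38 on it, against 8.14 and 8.21 on the other controls and 7.23, 7.28 and 8.0 in the mutants. Lcn2, or lipocalin 2, for example, read 8.92, 7.26 and 9.38 in the controls, and complement factor B (Cfb) read 5.09, 3.98 and 5.75. Control replicate 2 was the highest control for 2 genes, Pgr at 10.30, 10.56 and 10.35 and Igf1 at 9.35, 9.45 and 9.37. Of the list, 1 gene was called higher in the mutant and 3 lower on 6 arrays, against 5.61% and 6.36% of all genes. Mutant replicate 2 was the lowest mutant for 6 of the 13 genes, against 45 of 47 members. The list thus moved in part with the members among the controls, and the part of hormone state in the low mitotic transcripts was not tested.

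**Figure D5:**
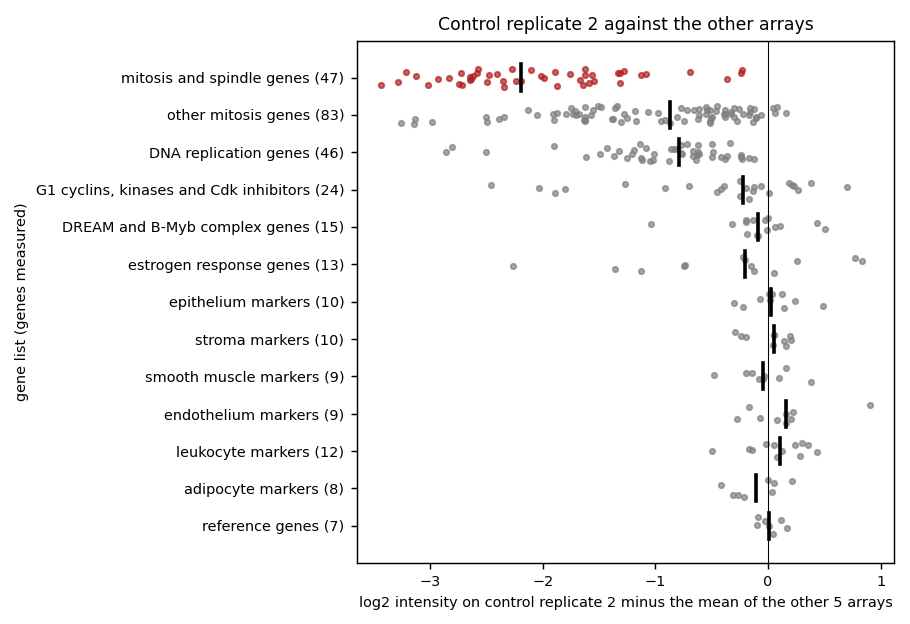
Each point is a gene, placed by its log2 intensity on control replicate 2 minus the mean of the other 5 arrays, for the 47 members (red) and 12 other gene lists (gray); the bar is the list's median and the vertical scatter within a row has no meaning. The members have a median of -2.19, other mitosis genes -0.87 and DNA replication genes -0.79, while markers of cell types and reference genes are centered near 0, the adipocyte markers with unequal levels within each group.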

How the data were processed

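Transcripts of mouse uterus were read on 6 arrays (3 control, 3 mutant) with 45037 probe sets. The deposited values are linear intensity values that the authors made with RMA (version not given in the sources used here), which corrects background and equalizes the arrays. Intensities ran from 1.99 to 10886.56. They were put on a log2 scale here after a floor of 1, which changed 0 values. Of the probe sets, 34945 had 1 symbol in the platform annotation, 932 several and 9160 none, which gave 18193 genes, 9010 of them with several probe sets. The brightest probe set stood for a gene. Groups were taken from the sample titles.

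The groups were tested by lmFit and eBayes of limma 3.58.1 (R 4.3.3), on 6 arrays and without control replicate 2. P-values were adjusted across the 18193 genes by Benjamini-Hochberg, and 0.05 was the threshold. Tables were made with pandas 2.3.3 (Python 3.11.15), and the fit was tested on simulated data. The number of arrays limits the precision, since probe intensities are not counts. Members and lists were chosen with earlier results of these data known. Given with their difference were the members past the threshold, the 6 with the largest and the 6 with the smallest difference on control replicate 2, and the 4 with the largest difference each way without it. The estimates of other genes were given only where they were called, apart from their values on control replicate 2. Ctnnb1, Axin2, Ltf, Sprr2f, Lcn2, Cfb, Pgr, Igf1, Adipoq, Tek, Mybl2, Lin9, Lin52 and E2f4 were named after their values were seen. Promoter windows came from RefSeq (GRCm38.p6), and no entry was matched for Aurkb, Ccna2, Cdc25c, Foxm1, Incenp, Kif20a, Smc4 and Tpx2. The alternatives tried were other scalings, filters, floors, probe set choices, variance settings, the replicate number as a block, the equal-variance test of the methods and leaving out each array.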

Additional observations from a re-analysis of the deposited data

How the results depend on the processing

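No member was called in any of the 17 alternative settings, where the lowest adjusted limma p of a member was 0.0559. Each setting read a member at its brightest probe set or at the mean of its probe sets. Other single probe sets, such as the dim ones of Smc2 that split the groups, could not be called. The sign of the median member depended on control replicate 2: leaving out 1 array at a time gave -0.20 (without control replicate 2) to 0.99 (without control replicate 3), and leaving out control replicate 2 and mutant replicate 2 together, a setting chosen after seeing the data, gave -0.009. In that setting the differences were -0.19 for Anln, -0.037 for Birc5, -0.11 for Ccna2, -0.046 for Ccnb2, -0.009 for Foxm1, -0.25 for Hmmr, -0.004 for Mki67, -0.31 for Nusap1, -0.19 for Smc4 and -0.21 for Spc25. Array weights gave -0.031 for Foxm1, -0.029 for Hmmr, -0.082 for Nusap1, -0.12 for Smc4 and -0.076 for Spc25, and the mean of probe sets -0.054 for Spc25. Over single arrays left out, the differences ran from -0.43 to 0.87 for Anln, -0.18 to 1.47 for Birc5, -0.11 to 1.48 for Bub1, -0.29 to 1.51 for Ccna2, -0.36 to 1.43 for Ccnb2, -0.21 to 0.077 for Cdc25c, -0.045 to 0.12 for Foxm1, -0.43 to 0.67 for Hmmr, -0.086 to 0.52 for Kif4, -0.23 to 1.36 for Mki67, -0.57 to 0.94 for Nusap1, -0.27 to 0.16 for Smc4, -0.45 to 0.57 for Spc25 and -0.13 to 1.68 for Ube2c. The sign turned for 39 members in at least 1 setting, and for 30 of them only where control replicate 2 was left out.

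The 1021 genes called higher became 283 with a floor of 16, 105 with the methods' t-test and 359 without both arrays, and 480 to 971 without single arrays. The 1157 called lower became 243, 40 and 228, 757 with a fold above 1.5 and unadjusted p under 0.05, and 372 to 1139 without single arrays. The lowest counts came without control replicate 1. The cause of these changes was not tested, and the settings that left arrays out also had fewer arrays. Same-numbered arrays deviated together with r of 0.011, 0.212 and 0.164, and the other pairings had r from -0.212 to 0.112. The numbers were not taken as pairs in the main fit. Whether arrays of the same number share a batch was not tested. With a replicate block 966 genes were higher and 1085 lower, 0 members were called and the members' median was 0.61. The 105 genes low on control replicate 2 became 63 (24 members) with the mean of probe sets, 58 with a floor of 16, 209 at more than 0.5 and 26 (15 members) at more than 2. Dim probe sets limit the differences of the members that are low on control replicate 2.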

Other observations

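Of the 105 genes more than 1 log2 unit lower on control replicate 2, 21 were in none of the lists. Among them Pclaf, which binds the sliding clamp PCNA, was 2.83 below the mean of the other 5 arrays, and Brca1 was 1.73 below. Pclaf read 7.51, 4.91 and 7.64 in the controls and 7.90, 7.64 and 8.05 in the mutants, so that its mutant replicate 2 lay with controls 1 and 3.

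A few of the 21 are not known for a role in the cell cycle. Serpinb11, a serpin, read 4.83, 2.69 and 3.94 in the controls and 6.08, 6.82 and 7.36 in the mutants, and Sprr1a, a protein of the cornified envelope, read 4.21, 3.05 and 4.24 in the controls and 5.58, 5.50 and 6.84 in the mutants. These 2 genes had controls 1 and 3 below all mutants, unlike most mitosis genes. In the other direction, Hpgds, a prostaglandin D synthase, was the 1 gene more than 1 unit above the other 5 arrays on control replicate 2, at 3.69, 4.81 and 3.46 in the controls and 3.08, 3.35 and 3.13 in the mutants. These genes were named after their values were seen.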
